A study of Homo sapiens with 8 samples.

Results

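Expression of 9 human genes of drug metabolism was described over 8 arrays of HepG2 cells: the cytochrome P450 genes CYP3A4, CYP3A5, CYP3A7, CYP2B6, CYP2C8 and CYP2E1, the nuclear receptor genes NR1I2 and NR1I3, and the reductase gene POR. Members were found by matching these symbols and their older aliases to the platform annotation, which gave 23 of the 54675 probe sets on the array. A probe set is a group of short probes that together measure 1 transcript. Of the 9 genes, 8 had a probe set named for them. No probe set is named NR1I2 in the annotation used here, so that gene was not analysed here. Of the 23 probe sets, 20 carried 1 gene symbol. Both CYP3A7 probe sets also carry the symbol of its read-through transcript CYP3A7-CYP3A51P, and 1 CYP2B6 probe set is shared with the pseudogene CYP2B7P. Of 19775 genes with a single-symbol probe set, 7 were members, and 4 of these (CYP3A4, CYP3A5, CYP2E1 and POR) were bright enough to be among the 13298 genes tested.

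The CYP2 and CYP3 enzymes are haem monooxygenases of the endoplasmic reticulum that oxidise drugs, steroids and other lipophilic compounds in the liver. Each takes electrons from NADPH through the flavoprotein POR. NR1I2 (PXR) and NR1I3 (CAR) are nuclear receptors that bind DNA with RXR and switch on CYP3A and CYP2B genes when foreign compounds enter the hepatocyte. In adult liver CYP3A4 is the leading CYP3A form and CYP3A7 the foetal one, and hepatoma lines are known to have lost much of this programme.

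HepG2, the only line in the series, is a human hepatocellular carcinoma cell line. All cells were serum starved, for a length that the labels give differently (24 h or overnight), and then kept in serum-free medium. The control group (4 arrays) had that medium alone, and the quercetin group (4 arrays) had it with 3 µM quercetin, a plant flavonol. RNA came from 2, 4, 12 and 24 h, with 1 array for each treatment and time. Nothing in the labels says whether the arrays came from separate cultures, and no treatment and time has a replicate. The p-values below therefore rest on the spread of differences across times, not on replicates. The fitting tool limma draws each gene's spread toward that of genes of like brightness. Its SEs and p-values thus rest mostly on this shared spread, and an SE can be smaller than a gene's own differences would give. An exact test over 4 pairs cannot go below a two-sided p of 0.125. Tests of time take the control and the quercetin array of a time as its 2 values. Their error is the spread of those differences, drawn toward that of other genes in the same way.

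All values are on the log2 scale as the authors deposited them, so a difference of 1 is a doubling. Array medians lay between 7.36 and 7.48. The mean signal of 18S ribosomal RNA probe sets ranged from 7.29 to 12.01, and the 2 h pair differed most in it (8.57 in the control array and 12.01 in the quercetin array). All 11 hepatocyte and hepatoma markers, albumin and alpha-fetoprotein among them, were above background at 11.46 to 15.09. Of 15 markers of leukocytes, fibroblasts, endothelium and other epithelia, 4 were above background. They were LYZ at 13.99, COL1A1 at 9.23, SFTPC at 8.95 and PECAM1 at 8.78, while PTPRC, CD3E and CD14 were not.

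The CYP3A genes lie side by side on chromosome 7 and have closely similar promoters, and the printed stretches show the site on which PXR is known to act in CYP3A4. In the 250 bases before the RefSeq start (GRCh38.p14), the CYP3A4 promoter held an everted repeat: TGAACT or TGACCT, then 6 bases, then AGGTCA or AGTTCA. Capitals mark this 18-base element in CYP3A4 and the best-matching stretch in CYP3A5 and CYP3A7. All 3 segments are on the minus strand, at chr7:99784315-99784374, chr7:99680071-99680130 and chr7:99735326-99735385 in the order given.
CYP3A4: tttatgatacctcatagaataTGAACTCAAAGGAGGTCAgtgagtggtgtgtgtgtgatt
CYP3A5: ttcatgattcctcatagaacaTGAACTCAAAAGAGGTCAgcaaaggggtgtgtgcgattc
CYP3A7: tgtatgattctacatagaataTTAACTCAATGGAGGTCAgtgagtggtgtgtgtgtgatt

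The element covers bases 169 to 152 before the CYP3A4 start, 113 to 96 before that of CYP3A5 and 168 to 151 before that of CYP3A7. Counting from 1 at its 5′ end, CYP3A5 matched CYP3A4 at 17 of 18 bases with the difference G11A, which lies in the spacer. CYP3A7 matched at 16 of 18 bases. Its differences were G2T, in the first 6-base motif, and A10T in the spacer, so CYP3A7 did not match the repeat as searched. The repeat was found in 6 of 35116 RefSeq promoter windows (0.01709%), CYP3A4 and CYP3A5 among them.

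The single 6-base motif AGGTCA or AGTTCA, on either strand, is common: 6915 of the 35116 windows (19.69%) held it. It occurred at 2 places each in CYP3A4 and CYP3A5, which are the arms of the repeat, and at 1 place each in CYP3A7, CYP2E1 and CYP2B6. NR1I2 has 2 windows, of which 1 held the motif, and those of NR1I3 and CYP2C8 held none. Direct repeats of the motif spaced by 3 or by 4 bases, the spacings bound by RXR with VDR and with CAR among others, occurred in 0.01424% and 0.02563% of windows and in none of the 9 windows of the 8 matched members.

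The deposited table has no detection calls, so each probe set was set against olfactory receptor probe sets, whose genes belong to sensory neurons. The means of 135 such probe sets had a median of 6.79 and a 95th percentile of 8.50. A member probe set at or below 8.50 was called near background, and 20 of the 23 were. Most of the array lies there too: between 65.5% and 75.9% of all probe sets were below this limit. The exact share was not computed, so the count is a description of the members only. POR stood far above, at a mean of 11.24 over the 8 arrays. The other 2 above it were CYP3A7 243609_at at 8.92 and CYP3A4 205998_x_at at 8.82, both within 0.5 of the limit. Those 3 probe sets were above nearly all olfactory receptor probe sets in each of the 8 arrays, beyond that array's own 95th percentile.

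**Figure D1:**
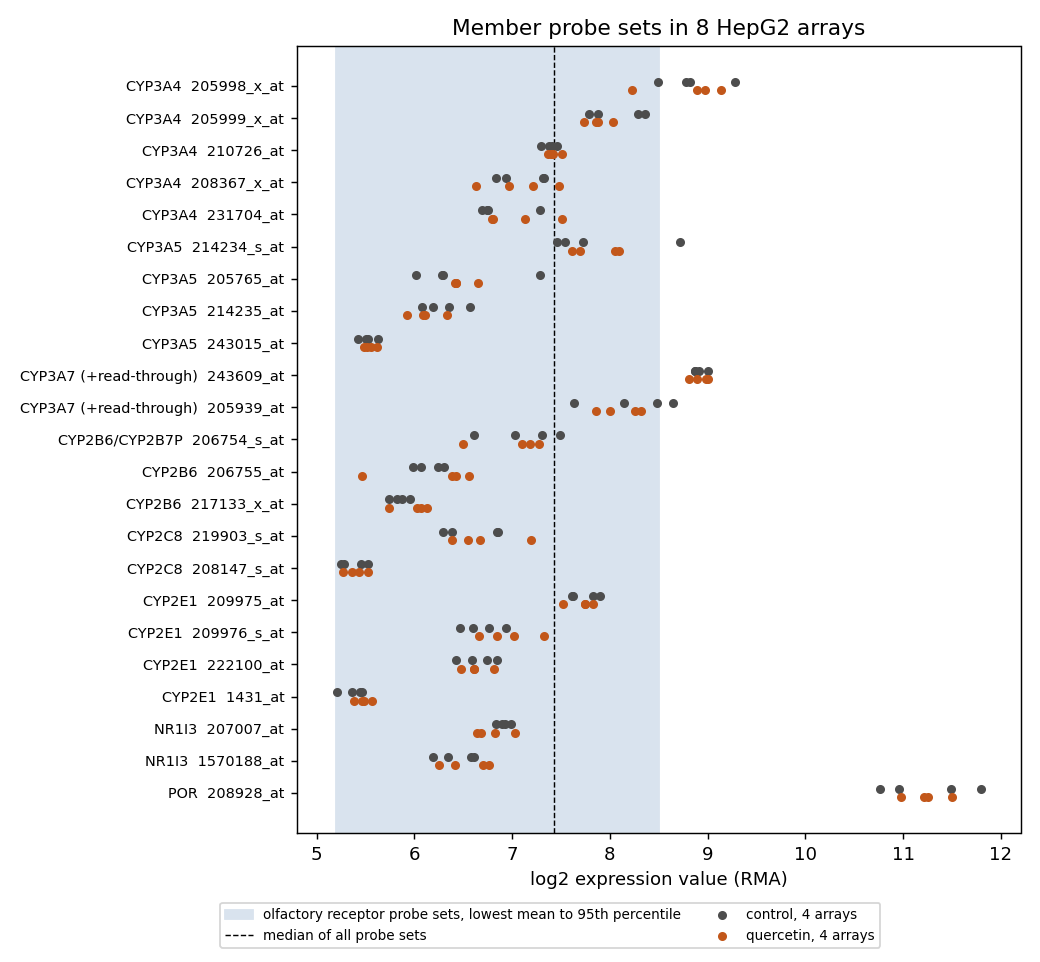
Each row is a member probe set and each point an array, with control arrays in grey and quercetin arrays in orange, on the log2 expression scale. The shaded band runs from the lowest olfactory receptor mean to the 95th percentile of 8.50, and the dashed line is the median of all probe sets, 7.43. POR lies near 11 and most other probe sets lie inside the band, with the treatments intermingled.

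CYP3A4, which oxidises more marketed drugs than any other P450, had 5 probe sets. In 205998_x_at, its brightest, the control arrays read 8.78, 9.28, 8.82 and 8.49 at 2, 4, 12 and 24 h, and the quercetin arrays 8.98, 9.14, 8.89 and 8.23. Both groups were highest at 4 h and lowest at 24 h, and their values overlapped. The suffix _x_at marks probes that can also match other sequences, so part of this signal may not be CYP3A4's own.

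The other 4 CYP3A4 probe sets were near background. In 205999_x_at the control arrays read 7.88, 8.29, 7.79 and 8.36 and the quercetin arrays 8.03, 7.85, 7.73 and 7.88. It did not share the low at 24 h of the brightest probe set in the control group. The probe set 210726_at stayed between 7.29 and 7.51 over the 8 arrays, the narrowest range of the 5. In 231704_at, the quercetin array at 2 h (7.51) and the arrays at 4 h (7.28 and 7.13) were above the other 5, which lay between 6.69 and 6.80. The remaining 208367_x_at ranged from 6.63 to 7.47 and was highest at 4 h in both groups.

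CYP3A5, the form found at high levels in only some livers because of a common splice variant, was near background in all 4 of its probe sets. In 214234_s_at the control arrays read 7.46, 7.73, 8.72 and 7.54 and the quercetin arrays 7.61, 8.09, 7.70 and 8.05. The control array at 12 h was the only one of the 8 above its own olfactory receptor limit, and it stood about 1 above the other control arrays. The other 3 CYP3A5 probe sets did not share a peak of that size: at 12 h their control arrays read 6.28, 6.57 and 5.42. In 205765_at it was the control array at 24 h that was high, at 7.29, against 6.02 to 6.29 in the other controls and 6.42 to 6.65 with quercetin.

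CYP3A7, the foetal liver form, was read only by 2 probe sets shared with its read-through transcript. Of these, 243609_at was above background and was the steadiest of the member probe sets that were, while 205939_at was near background. In 243609_at the control arrays read 8.87, 9.0, 8.91 and 8.87 and the quercetin arrays 8.98, 9.01, 8.81 and 8.89, a spread of 0.20 over the 8 arrays. Its other probe set, 205939_at, moved more. There the control arrays read 8.14, 7.63, 8.48 and 8.65 and the quercetin arrays 8.31, 8.26, 7.86 and 8.01. Quercetin was the higher of the pair at 2 and 4 h and the lower at 12 and 24 h, by 0.17, 0.63, -0.62 and -0.64. The 2 probe sets thus gave different pictures, and because both are shared neither stands for CYP3A7 alone. A fold between probe sets is not given, because brightness depends on the probes.

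CYP2B6, the classical CAR target, was dim. In 206754_s_at, shared with CYP2B7P, the control arrays read 7.49, 7.03, 7.31 and 6.61 and the quercetin arrays 7.28, 7.10, 7.19 and 6.49. The pair at 24 h was the lowest of the 4 pairs. In 206755_at the control arrays read 6.07, 6.31, 6.25 and 5.99 and the quercetin arrays 6.38, 6.42, 6.56 and 5.47, so quercetin was higher at 2, 4 and 12 h and lower at 24 h. The third probe set, 217133_x_at, stayed between 5.74 and 6.13.

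CYP2C8, which oxidises paclitaxel and arachidonic acid, had 2 probe sets, both near background. In 219903_s_at the control arrays read 6.38, 6.86, 6.85 and 6.29 and the quercetin arrays 6.67, 7.20, 6.55 and 6.39. Both groups were highest at 4 h. The other, 208147_s_at, lay between 5.25 and 5.53, among the dimmest of the array.

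CYP2E1, which oxidises ethanol and paracetamol, had 4 probe sets near background. In the brightest, 209975_at, the control arrays read 7.62, 7.90, 7.83 and 7.61 and the quercetin arrays 7.74, 7.83, 7.75 and 7.53. All 8 values lay within 0.38 of each other and the groups overlapped. In 209976_s_at the quercetin array at 24 h read 7.32, against 6.47 in its control, and the other pairs differed by 0.06 to 0.08. No other CYP2E1 probe set showed that gap at 24 h, where they differed by -0.08, -0.13 and 0.25.

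NR1I3 (CAR), the receptor that activates CYP2B6, was near background in both of its probe sets. In 207007_at the control arrays read 6.84, 6.89, 6.99 and 6.93 and the quercetin arrays 6.83, 7.03, 6.68 and 6.65. In 1570188_at the control arrays read 6.58, 6.61, 6.34 and 6.19 and the quercetin arrays 6.70, 6.76, 6.41 and 6.25. Here quercetin was higher at each time, by 0.06 to 0.15, while in 207007_at it was lower at 12 and 24 h by 0.31 and 0.28.

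POR, the reductase that serves all microsomal P450 enzymes, was read by 1 probe set that was brighter than 95.5% of the array. In 208928_at the control arrays read 11.48, 10.96, 10.76 and 11.80 and the quercetin arrays 11.25, 10.98, 11.21 and 11.50. Both groups were highest at 24 h. The control group ranged more widely, with an SD of 0.48 over its 4 arrays against 0.22 for quercetin, and the quercetin values lay inside the control range.

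**Figure D2:**
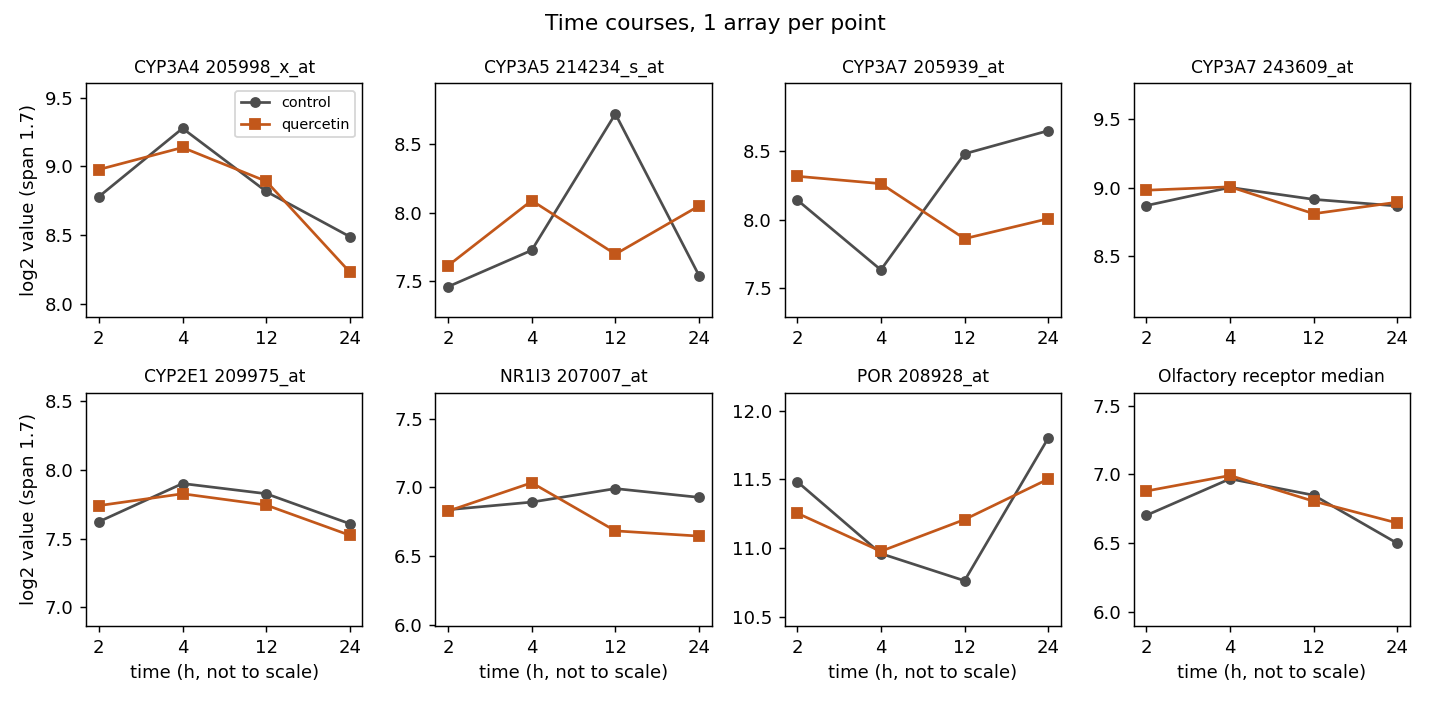
Each panel is a probe set, with time in h on the horizontal axis and log2 expression on the vertical axis, control in grey and quercetin in orange, 1 array per point. Both CYP3A4 lines are lowest at 24 h (8.49 and 8.23), the POR lines end high (11.80 and 11.50), and the CYP3A5 control line peaks at 12 h (8.72).

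The first question was whether quercetin changed these genes. None of the 4 tested members was called over the 4 times. The mean difference, quercetin minus control, was -0.03 ± 0.14 (SE) for CYP3A4, -0.03 ± 0.13 for CYP2E1, -0.02 ± 0.12 for POR and 0.00 ± 0.18 for CYP3A5. The adjusted p of limma was 0.976 for CYP3A4 and CYP2E1, 0.986 for POR and 1.0 for CYP3A5. Of all genes tested, 0% were called and 5.90% had an unadjusted p under 0.05, as did 0 of the 4 members. The CYP3A5 mean near 0 is made of differences of 0.15, 0.36, -1.02 and 0.51. Without the 12 h pair it was 0.34 ± 0.16 (SE, adjusted p 0.553), and CYP3A5 was then the 1 member with an unadjusted p under 0.05. With no filter on dim genes, CYP2B6, CYP2C8 and NR1I3 also entered the fit. Again 0% of genes were called, and their mean differences were 0.05 ± 0.13, 0.11 ± 0.13 and -0.11 ± 0.13.

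At single times 1 array is set against 1 array, with no test. At 2 h, 0.474% of genes differed by at least 1, and at 4 h 0.0677% did. At 12 h the share was 0.346% and at 24 h 0.384%. The only member in any of these was CYP3A5 at 12 h, at -1.02, which was lower than in all but 0.00752% of genes. That value rests on the high control array, since the quercetin array (7.70) lay among the other arrays. The 3 other CYP3A5 probe sets differed by 0.15, -0.46 and 0.07 at 12 h. At the other times CYP3A5 was higher with quercetin by 0.15, 0.36 and 0.51.

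CYP3A4 differed by 0.20, -0.14, 0.07 and -0.26 at the 4 times, inside the central 95% of all genes at each (-0.71 to 0.59 at 2 h and -0.61 to 0.55 at 24 h). CYP2E1 differed by 0.12, -0.07, -0.08 and -0.08. POR differed by -0.23, 0.02, 0.45 and -0.30, and its 12 h value lay inside the range of -0.41 to 0.59 that held 95% of genes. None of the 4 members kept the same sign at all 4 times, against 13.8% of all genes. Over the 23 probe sets and 4 times, 63 of 92 differences were under 0.25 in size, 9 were at least 0.5 and 1 was at least 1. In none of the 23 did the control and quercetin values lie apart. The matching shares over all probe sets were not computed, so these counts describe the members only.

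**Figure D3:**
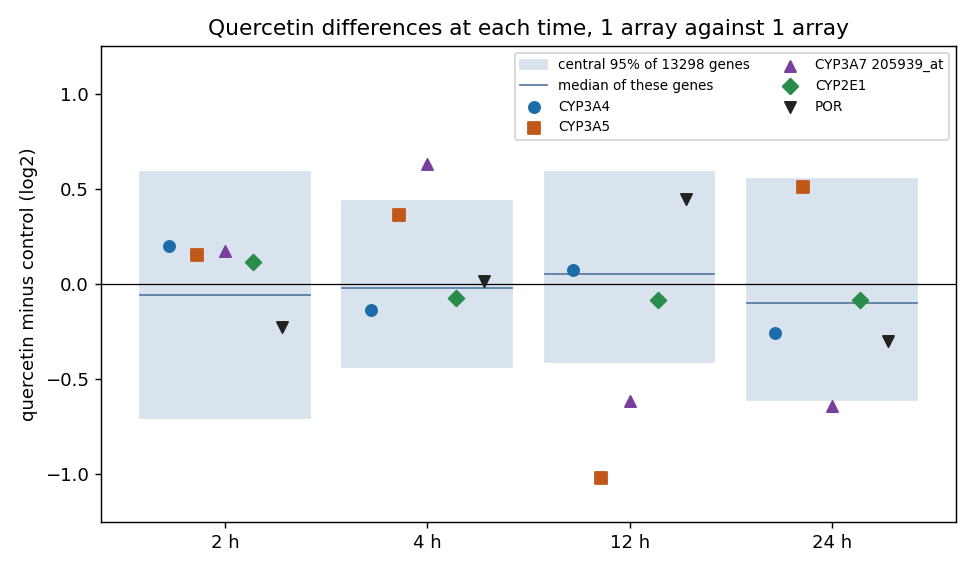
Quercetin minus control on the log2 scale, 1 point per gene and time, over bars for the central 95% of the 13298 genes tested at that time. CYP3A4, CYP2E1 and POR lie inside the bars, CYP3A5 lies below at 12 h (-1.02), and CYP3A7 205939_at lies outside at 4, 12 and 24 h (0.63, -0.62 and -0.64).

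The difference at 12 and 24 h was also set against that at 2 and 4 h. None of the 4 members was called, against 0.368% of all genes, and the adjusted p of limma was 1.0 for each. The estimates, late minus early, were -0.51 ± 0.30 (SE) for CYP3A5, 0.18 ± 0.23 for POR, -0.12 ± 0.31 for CYP3A4 and -0.10 ± 0.30 for CYP2E1. That of CYP3A5 became 0.25 without the 12 h pair and -1.28 (adjusted p 0.0611) without the 24 h pair. CYP3A7 205939_at, which is not in the gene fit, was read from the fit over every probe set above the filter, where 0.516% were called. Its late minus early difference was -1.03 ± 0.31 with an adjusted p of 0.149, and the other CYP3A7 probe set gave -0.10 ± 0.31.

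The second question was how the genes moved with time in serum-free medium. The 3' minus 5' difference of ACTB, a sign of RNA quality, also moved with time, from 0.88 (control) and 1.11 (quercetin) at 2 h to 1.36 and 1.39 at 24 h. It was 1.40 and 0.88 in the 12 h pair, where CYP3A5 stood out. Its part in the results was not tested. CYP3A4 and POR differed between times: the F-test of limma over the 4 times called both, with an adjusted p of 0.0101 for CYP3A4 and 0.00565 for POR. It called 38.1% of all genes, and with 4 genes tested the 2 members called are a share near that background. CYP2E1 (adjusted p 0.518) and CYP3A5 (0.192) were not called. In the contrast of 24 h with 2 h, 21.3% of genes were called, 17.3% higher and 3.98% lower at 24 h, and none of the 4 members was. CYP3A4 was nearest, at -0.52 ± 0.19 (SE) with an adjusted p of 0.0571, and only 4.35% of genes had a lower value. POR gave 0.28 ± 0.17, CYP3A5 0.26 ± 0.26 and CYP2E1 -0.12 ± 0.18. The POR value was 0.046 after cyclic loess, 0.015 after quantile normalization and 0.50 after centring on olfactory receptors. It was 0.095 without the control array at 24 h and 0.14 without the quercetin array at 2 h, and 0.47 and 0.42 without the other array of those pairs. None was called at 12 h against 2 h (3.00% of genes) or at 4 h against 2 h (0.534%). CYP3A5 at 12 h gave 0.67 ± 0.26 (adjusted p 0.185), and POR gave -0.40 at 4 h (adjusted p 0.216) and -0.38 ± 0.17 at 12 h (adjusted p 0.235).

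The course of CYP3A4 moved with that of background probe sets. The median of the olfactory receptor probe sets was 6.70, 6.97, 6.85 and 6.50 in the control arrays at 2, 4, 12 and 24 h, and 6.88, 6.99, 6.80 and 6.65 in the quercetin arrays. It too was highest at 4 h and lowest at 24 h in both groups. When each array was centred on this median, CYP3A4 was -0.30 from 2 to 24 h and its F-test had an adjusted p of 0.354. POR kept its call (adjusted p 1.4e-05), and CYP3A5, near background, gained one (0.0176). With this centring the F-test called 7418 of the 13298 genes, against 5064 as deposited. Adjusted p-values fell far more than differences grew. For the regulator gene NR0B2, 24 h minus 2 h was 1.54, against 1.32 as deposited. Its adjusted p in the F-test of limma was 3.1e-16, against 2.9e-06. The error estimate of the fit thus changed as well, so calls gained here cannot be read as the centring alone. The part of the olfactory receptor shift in the CYP3A4 result was not tested further. The call of CYP3A4 also needed single arrays: its adjusted p was 0.0555 without the control array at 4 h and 0.144 without the quercetin array at 24 h. With the mean of its probe sets in place of the brightest it was not called either (adjusted p 0.173), and 24 h minus 2 h was -0.18 in place of -0.52. That of POR was 0.119 without the control array at 24 h, 0.112 after cyclic loess and 0.151 after quantile normalization.

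With no filter on dim genes the F-test also called CYP2B6 (206755_at, adjusted p 0.0254) and CYP2C8 (219903_s_at, 0.0346), but not NR1I3 (0.844), with 26.8% of genes called. Neither probe set was called in the fit over every probe set without a filter (adjusted p 0.0556 and 0.0698). The low of 206755_at at 24 h was mostly in the quercetin array, 5.47 against 5.99 in its control. The shared probe set 206754_s_at was read from the fit over every probe set without a filter. Its difference of 24 h minus 2 h was -0.83 ± 0.18 (SE), with an adjusted p of 0.00965, and 2.65% of probe sets were called lower. All of these lie near background. In the same fit the F-test called 16.4% of all probe sets, 3 of the 23 member probe sets (13%) and 18 of the 135 olfactory receptor probe sets (13.3%). Of the latter, 104 were lower at 24 h than at 2 h.

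Genes with the course most like that of each member were taken by Pearson's r over the 8 arrays, which share time, treatment and scaling. For CYP3A4 these were VDR, the vitamin D receptor (r = 0.987), ADAM20 (0.984) and PLG, plasminogen (0.983), with 205 genes above 0.9. For CYP2E1 they were SLC10A1 (0.985), STAT4 (0.982) and CD1A (0.981), with 123 genes above 0.9. For POR they were HIGD2A (0.991), AHCY (0.989) and RBM10 (0.986), with 593 above 0.9. CYP3A5 had only 2 such genes, BHLHE41 (0.946) and PTGFRN (0.904), followed by TRAF6 (0.895). Such counts for other genes are not given here, so these have no reference. The CYP3A5 probe set was near background, and its control array at 12 h (8.72) stood apart from the other arrays. That of CYP2E1 was also near background, with a range of 0.38 over the arrays. Whether these likenesses go beyond a course shared with background probe sets was not tested.

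In the lists of pathway genes, as in the members, no gene was called for quercetin in the deposited scaling, and some were called for time. Of 15 other CYP2 and CYP3 genes listed, 11 had a single-symbol probe set and 9 were tested, and 1 was called at 24 h against 2 h: CYP2U1, a fatty acid hydroxylase, at -0.59 (adjusted p 0.0415), a call that cyclic loess kept (0.0344) and that was lost with median centring (0.0684), quantile normalization (0.0629) and olfactory receptor centring (0.212). Of all genes, 3.98% were called lower in that contrast. The list's median was -0.20, against 0.09 over all genes and -0.18 over the olfactory receptor probe sets. With olfactory receptor centring it was 0.017. Of 34 P450 genes of other families, 19 were tested. CYP1A1, a target of the aryl hydrocarbon receptor, fell by 1.55 as a mean over the treatments. The control arrays went from 9.52 at 2 h to 8.51 at 24 h, and the quercetin arrays from 10.90 to 8.80. CYP24A1, which breaks down vitamin D, fell by 1.16 and CYP1A2 fell by 0.69. These were the 3 genes of that list called lower, and none was called higher. CYP24A1 was near background, with a mean of 7.91 against the limit of 8.50, and CYP1A2 was read by an _x_at probe set. With olfactory receptor centring the call of CYP1A2 was lost (adjusted p 0.102) and CYP4V2 was called higher, at 0.54 (adjusted p 0.0217). CYP4V2 was near background, with a mean of 7.51, and that centring called 3756 of the 13298 genes higher. CYP1A1 had the largest mean quercetin difference of that list, 0.94 ± 0.19 (SE), not called (adjusted p 0.30). With olfactory receptor centring it was called, at 0.86 (adjusted p 0.00166), among 10 genes called in all. The difference was no larger there than as deposited, and the error estimate of that fit differed.

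Partners and hepatic regulators of the CYP genes were tested for 19 of 26. At 24 h against 2 h 7 were called higher and 2 called lower, where 17.3% and 3.98% of all genes were. The difference was above 0 in 14 of the 19, with a median of 0.35. The bile acid induced repressor NR0B2 (SHP) rose by 1.32 and the coactivator PPARGC1A by 1.30. CEBPA, a factor of the mature hepatocyte, was lower, at -1.45. VDR, at -0.53, was called by a narrow margin (adjusted p 0.0499) and was not called under any of the 4 other scalings (0.0571 to 0.263). It was near background, with a mean of 8.16. After cyclic loess or quantile normalization 4 were called higher and 2 lower. Of all genes, 1451 were called higher and 958 lower after loess, and 1176 and 887 after quantile normalization. Those scalings change the whole array: the median of all genes was 0.09 as deposited, -0.02 after loess and 0.31 after centring on olfactory receptors, and the share of called genes that were higher was 81.3%, 60.2% and 96.1%. It was 57.0% after quantile normalization and 87.6% after median centring.

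Among 12 tested of 16 other PXR and CAR targets, 3 were called higher at 24 h, where 17.3% of all genes were. They were ALAS1, the first enzyme of haem synthesis, by 0.83, the efflux pump gene ABCB1 by 0.70 and GSTA1 by 0.45. ABCB1 was near background, with a mean of 7.78. After loess or quantile normalization it was 2 called higher and 2 lower, and GSTA1 was not called (adjusted p 0.269 and 0.416). Of all genes, loess called 1451 higher and 958 lower of 13298, and quantile normalization 1176 and 887 of 13303. GSTA1, a glutathione transferase, was higher with quercetin at each time, by 0.36, 0.68, 0.42 and 0.37, with a mean of 0.46 ± 0.11 (SE) that was not called (adjusted p 0.756). Of the other electron donors and partners, 7 of 10 were tested and FDX1, the mitochondrial ferredoxin, was called higher at 24 h by 0.48. After loess or quantile normalization 0 were called higher and 3 lower, with FDX1 at an adjusted p of 0.216 and 0.320.

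**Figure D4:**
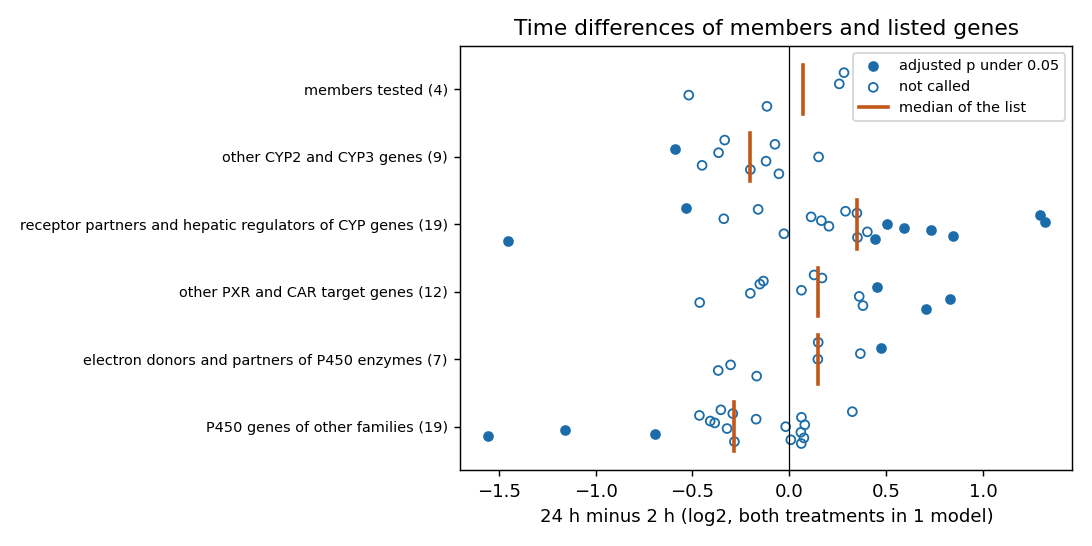
Difference of 24 h minus 2 h on the log2 scale for the tested genes of each list, 1 point per gene, with called genes (limma, adjusted p under 0.05) filled. The 4 members lie between -0.52 and 0.28 and none is called. The regulators spread from -1.45 (CEBPA) to 1.32 (NR0B2).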

How the data were processed

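Each of the 8 arrays has a log2 value for all 54675 probe sets in the authors' deposited table. The submitters' processing notes name RMA as the tool, with no version or settings, and probe intensities were not used. Probe sets were named from the platform annotation, with symbols updated through Entrez identifiers. The brightest single-symbol probe set stood for each gene, and the 13298 genes whose mean exceeded the overall probe set median of 7.43 entered the fit.

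Differences were tested in R 4.3.3 with limma 3.58.1 (lmFit, eBayes with trend, Benjamini-Hochberg over all genes, threshold 0.05), with time as a block and treatment as a term (3 residual degrees of freedom). The late minus early model had 2. The time pairs are the replicate numbers, since the labels share no others. Members, lists and rules were chosen with earlier results of these data known. The text names all members, the 3 genes most like each tested member, and up to 3 genes per list by size of the quercetin and of the 24 h difference. Promoter windows are RefSeq's. The code was tested on simulated data.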

Additional observations from a re-analysis of the deposited data

Results flagged for a closer look

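In 46 groups of 4 values (23 probe sets in each treatment), 1 array lay far from the other 3 in 3 groups. The 4 values of a group are 4 times and not replicates, so a difference between times can also set 1 array apart. The usual rate of about 1 in 20 is for replicates and does not apply here. For CYP3A5 205765_at the quercetin array at 2 h read 6.65, and the others lay between 6.42 and 6.43. For CYP2B6 206755_at the quercetin array at 24 h read 5.47, and the others lay between 6.38 and 6.56. For CYP3A4 231704_at the control array at 4 h read 7.28, and the others lay between 6.69 and 6.75. All 3 probe sets are near background.

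In 2 probe sets quercetin was higher at both early times and lower at both late times. The share of all probe sets with this pattern was not computed, so the count is a description only. For CYP3A7 205939_at the late minus early difference was -1.03 (limma, adjusted p 0.149). For CYP3A4 208367_x_at it was -0.35 (adjusted p 1.0 in the fit over every probe set without a filter). Neither passed the threshold.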

How the results depend on the processing

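No alternative called a member for quercetin or for late minus early. Few genes were called for quercetin in any setting, at most 10 of 13298, with olfactory receptor centring. The alternatives covered filters, the choice of probe set, scaling, moderation, array weights, blocks and left-out pairs or arrays. Centring on olfactory receptors, and the alternatives for CYP3A7, were chosen after seeing the data. For 24 h against 2 h, 1 member (CYP3A4) was called with a filter at the 75th percentile, cyclic loess or eBayes without trend, and 0 in every fit without 1 array. It was called lower, as were 958 of the 13298 genes after cyclic loess. The numbers of members tested differed between settings, so counts of calls are not directly comparable. With no filter the F-test called 4 members of the 7 tested. It called 1 of the 4 tested, CYP3A4, after cyclic loess or quantile normalization. With the mean of probe sets it called POR, and only POR and CYP3A4 were tested. With gene-specific probe sets it also called POR, and only POR and CYP2E1 were tested. Of all genes it called 5291 of 19775 with no filter, 3843 of 13298 after loess and 3727 of 13303 after quantile normalization. Shares of all genes in the remaining settings are not given here. Without 1 array it called from 1 to 3.

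Values near 0 changed sign. The mean quercetin difference of CYP3A4 was 0.0010 with loess and -0.11 to 0.044 without 1 pair. That of CYP3A5 was -0.023 with median centring, -0.018 with loess, -0.014 with quantile normalization, -0.076 with olfactory receptor centring and -0.17 to 0.34 without 1 pair. That of POR was 0.039 with loess, 0.033 with quantile normalization and -0.17 to 0.077 without 1 pair. For CYP3A7 205939_at it was -0.36 to 0.061 without 1 pair. CYP2E1 was 0.10 from 2 to 24 h with olfactory receptor centring, and CYP3A5 was -0.080 to 0.60 without 1 array. Without 1 pair, late minus early was -0.29 to 0.047 for CYP3A4, -1.28 to 0.25 for CYP3A5 and -0.19 to 0.55 for POR.

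The pairing by time is the block: without a replicate block 0 members, and 0 of all 13298 genes, were called for quercetin. Between 16 and 20 probe sets were near background under the other references. With 1 array per treatment and time, and most members near background, small changes could not be told from noise.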
